A study of Mus musculus with 6 samples.

Results

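Immunoglobulin transcripts were measured by 54 of the 22690 probe sets on each array, chosen by their annotated gene symbols alone. A probe set was taken if at least 1 of its symbols was a heavy chain gene (Igha, Ighm, or a symbol starting with Ighg or Ighv, among others), a kappa light chain gene (Igk, or starting with Igkc, Igkj or Igkv) or a lambda light chain gene (starting with Iglc or Iglv). This gave 23 heavy, 28 kappa and 3 lambda probe sets with 27 distinct symbols, and 0 probe sets mixed chains. Several symbols were listed by 4 heavy, 8 kappa and 1 lambda probe sets. The symbols Ighd, Ighe, Ighg1 and Ighg2 occurred in 0 members, so no probe set here is named for IgD, IgE, IgG1 or IgG2. Whether members with other heavy chain names also bind such transcripts was not tested. In the RefSeq gene table of GRCm38.p6 all heavy chain genes listed lie on chromosome 12, the kappa genes on chromosome 6 and the lambda genes on chromosome 16.

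RNA came from CD4+CD25+ regulatory T cells (Treg) that had been isolated with magnetic separation from C57Bl/6 mice. The p300-deleted group, 3 arrays, had the genotype fl-p300/Foxp3cre, in which Cre recombinase driven from Foxp3 deletes the floxed gene for the histone acetyltransferase p300. The control group, 3 arrays, carried Foxp3cre without the floxed allele and is titled WT in the sample names, so Foxp3cre is named for both groups. The labels used here state neither age nor sex, nor whether a sample is 1 animal, and p-values therefore cover only the variation among these samples, of which some may be technical.

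Antibodies are made by B cells and, in far larger amounts, by the plasma cells that B cells become. Each antibody joins identical heavy chains with identical light chains, and a light chain is either kappa or lambda. Each chain has a variable region, put together from gene segments during B cell development and different from clone to clone, and a constant region. The heavy constant region sets the class: Ighm encodes that of IgM, Igha that of IgA and Ighg3 that of IgG3. T cells rearrange T cell receptor genes instead, and are not known as a source of secreted antibody.

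The arrays were alike over all probe sets, with medians of 5.38 to 5.46 on the log2 scale and correlations of 0.985 to 0.996 between arrays. T cell markers were bright in both groups, with Cd3e at 11.21 to 11.63 over the 6 arrays and Il2ra, which encodes CD25, at 8.62 to 9.17. Foxp3, which defines Treg, read 9.35 to 9.63 in controls but 2.57, 3.04 and 3.15 with p300 deleted, under the lower quartiles of those arrays (3.26, 3.29 and 3.28). The sources used here state neither which part of Foxp3 this probe set reads nor how the Foxp3cre allele of each group was built, so this reading alone does not show that the cells lacked Foxp3. With 0 probe sets annotated to Ep300, the deletion itself was not checked. A sign of RNA quality moved with the groups: for Gapdh, the excess of the 3' over the 5' control probe set was 0.06 to 0.14 with p300 deleted and 0.21 to 0.59 in controls, while for actin the ranges overlapped (0.29 to 0.43 and 0.30 to 0.46). The 18S control probe sets averaged 7.74, 9.47 and 7.91 with p300 deleted and 5.68, 6.03 and 8.69 in controls, with overlapping groups. The part of these control readings in the results was not tested.

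Immunoglobulin probe sets were higher in p300-deleted than in control Treg preparations for all 3 chains. Of the 54 members, 14 rose (25.9%) and 0 fell at an adjusted p under 0.05 in limma (without adjustment, p was under 0.05 for 43 higher and 1 lower), where 0.354% of all 22626 non-control probe sets rose and 0.102% fell. The members' median difference (log2, p300-deleted less control) was 1.19 against -0.02 over all probe sets, and 52 of the 54 were positive where 46.6% of all probe sets were. All 3 p300-deleted arrays lay above all 3 controls for 40 members (74.1%) against 9.19% of all probe sets, and below all of them for 0 members against 10.3%. Of the members, 30 were at least 2-fold higher against 0.782%. Because the members of a chain share cells and often probes, these counts describe them and are not a test of the chain. In RNA from a mixture of cells, more cells of a type and more RNA per cell cannot be told apart.

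How many members passed was set partly by single arrays. Leaving out p300-deleted 1, 2 or 3 gave 9, 11 or 10, and leaving out control 1, 2 or 3 gave 8, 16 or 22. Of the 14, 8 passed under every one of the up to 13 alternative fits that tested them: the 3 probe sets named Igha, Ighm probe sets 1452535_at and 1427869_at, 1427851_x_at listing Ighv1-72 and Ighm, and both Igkv9-120 probe sets among those that rose.

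**Figure D1:**
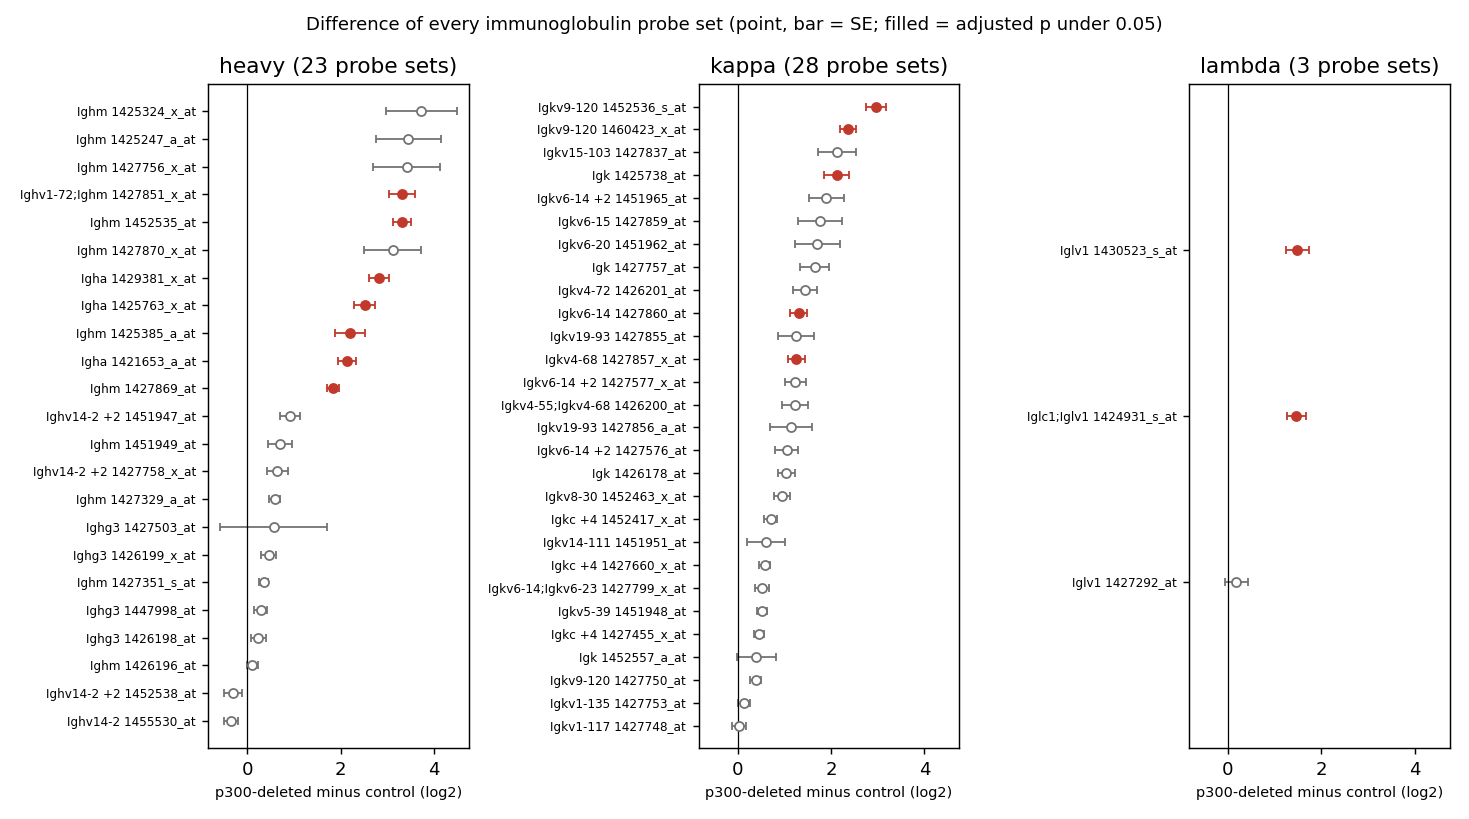
Difference between groups (p300-deleted minus control, log2, horizontal axis) of all 54 immunoglobulin probe sets, by chain and ordered by size; bars are the SE of the limma fit and filled points passed the adjusted p threshold of 0.05, and "+" gives the number of further symbols listed. Of 54 points, 52 lie right of 0, and the 14 filled points fall in all 3 panels.

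Of the heavy chain probe sets, 7 of 23 rose, 0 fell and 16 did not pass, with a median difference of 0.92. The members split into a group with differences of 1.85 to 3.73, which held 11 probe sets, and the remainder, whose differences were -0.34 to 0.92 and which held 0 calls. Without p300-deleted 3 the median was 1.85.

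All 3 probe sets named Igha, the constant region of IgA, rose. Igha probe set 1421653_a_at read 13.86, 13.68 and 13.70 with p300 deleted against 11.17, 11.65 and 12.005 in controls, and rose by 2.14 (SE 0.19, adjusted p = 0.00377), or 4.40-fold. Igha 1425763_x_at read 13.95, 13.56 and 13.71 against 10.82, 11.10 and 11.75 and rose by 2.52 (SE 0.22, adjusted p = 0.00370). Igha 1429381_x_at read 13.63, 13.20 and 13.43 against 10.18, 10.61 and 11.00 and rose by 2.82 (SE 0.21, adjusted p = 0.00104), or 7.08-fold. In all 3 probe sets the lowest p300-deleted array lay more than 1 log2 unit above the highest control, which was control 3 each time. These probe sets are annotated to 1 gene, so they are repeated readings of 1 transcript family and not independent genes.

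The p300-deleted readings of Igha were close to the top of the scale. The first of these probe sets lay 0.17, 0.30 and 0.30 below the highest value of its array, and the second 0.08, 0.42 and 0.29 below it, while in controls they lay 2.02 to 3.18 below it. Differences near the top can be compressed, since RMA brings the brightest values of all arrays to almost 1 level.

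Probe sets named for Ighm, the constant region of IgM, differed widely from each other. The name alone does not show that each of them reads IgM. The 11 probe sets with Ighm as their only symbol had differences of 0.11 to 3.73, with a median of 2.21, and 3 of them rose. The 3 that rose were 1452535_at, 1425385_a_at and 1427869_at. Ighm 1452535_at read 8.52, 8.34 and 8.23 with p300 deleted against 4.85, 4.82 and 5.48 in controls, and rose by 3.32 (SE 0.18, adjusted p = 0.000511), or 9.95-fold. Ighm 1425385_a_at read 11.77, 11.57 and 11.74 against 9.05, 9.03 and 10.39 and rose by 2.21 (SE 0.32, adjusted p = 0.0327). Control 3 was the highest control for both, by more than 1 log2 unit for 1425385_a_at, whose call was lost without any 1 of the arrays other than control 3 (adjusted p of 0.0602 to 0.160). Ighm 1427869_at was dimmer, at 5.53, 5.12 and 5.32 against 3.56, 3.53 and 3.34, and rose by 1.85 (SE 0.13, adjusted p = 0.00104).

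A further 4 Ighm probe sets had differences of over 3 without passing, and shared 1 pattern across the arrays. Ighm 1425324_x_at read 9.97, 8.93 and 9.21 with p300 deleted against 5.15, 7.65 and 4.11 in controls (difference 3.73, SE 0.76, adjusted p = 0.0773). Ighm 1425247_a_at read 11.07, 10.01 and 10.38 against 6.47, 8.92 and 5.72 (difference 3.45, SE 0.70, adjusted p = 0.0774). In both the groups did not overlap, and control 2 stood more than 2 log2 units above the other controls. The same array was the highest control for 1427756_x_at, at 7.78 against 5.63 and 4.41, and for 1427870_x_at, at 9.23 against 7.36 and 6.50. Without control 2 all 4 passed, with differences of 4.74, 4.39, 4.33 and 3.88 and adjusted p of 0.00369, 0.00340, 0.00857 and 0.00802. Of the 4, 3 have IDs ending in _x_at, which marks probes that can bind several similar transcripts. One of these, 1427870_x_at, is annotated to the same source record as 1427869_at, whose controls lay close together.

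The 2 brightest Ighm probe sets had the smallest differences among those well above background. Ighm 1427351_s_at read 14.03, 13.96 and 14.004 with p300 deleted against 13.56, 13.69 and 13.68 in controls (difference 0.36, SE 0.10, adjusted p = 0.157). In p300-deleted arrays 1 and 3 it was the highest value of the whole array and in array 2 it lay 0.02 below it, so any difference above that level could not be read. Ighm 1427329_a_at read 13.42, 13.12 and 13.37 against 12.68, 12.76 and 12.70 (difference 0.59, SE 0.11, adjusted p = 0.0707). For both, the groups did not overlap. Ighm 1451949_at and 1426196_at were dim, with means over all arrays below 3.60, the limit under which the dimmest 30% of probe sets lie, and had differences of 0.71 (adjusted p = 0.250) and 0.11 (adjusted p = 0.747). The annotation does not say which part of a heavy chain transcript each probe set reads, so these differences cannot be taken as those of IgM alone.

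**Figure D2:**
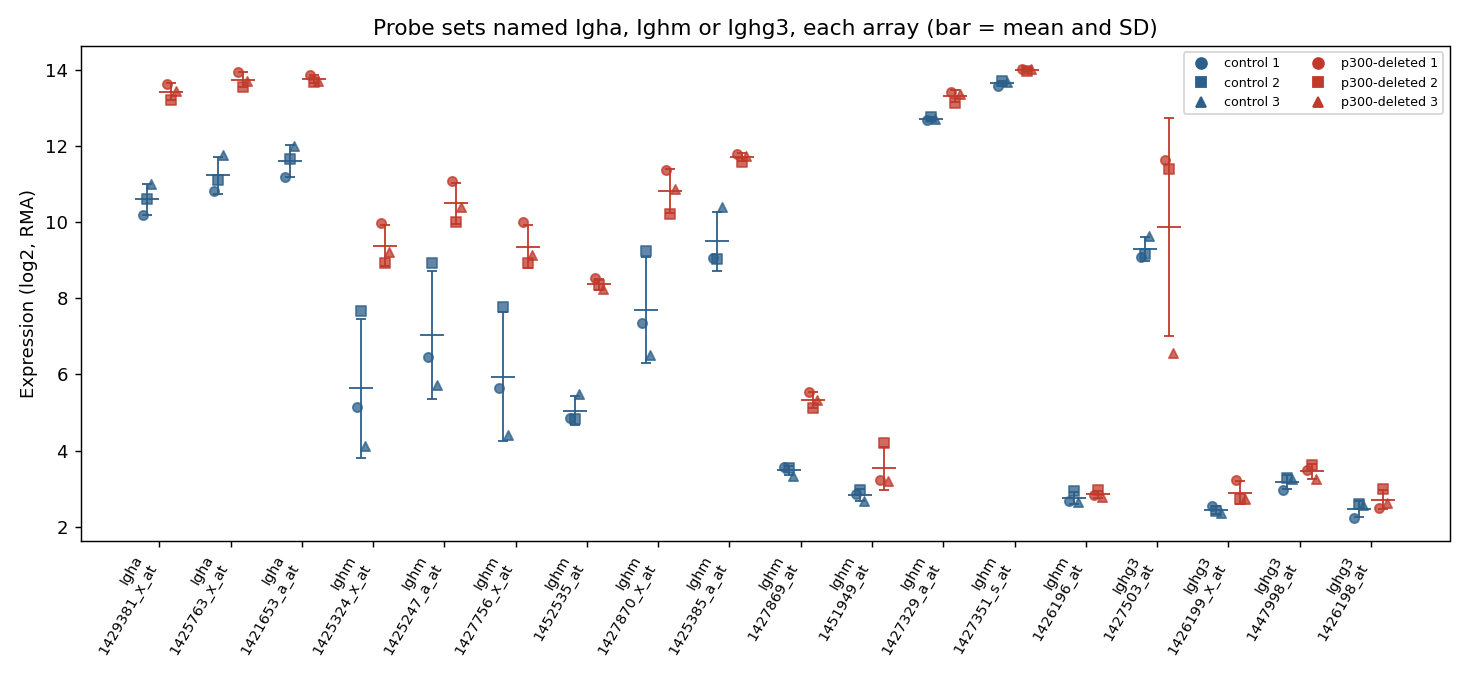
Level (log2, RMA) of the 18 probe sets named Igha, Ighm or Ighg3 alone, 1 column per probe set, with each array as a point (blue control, red p300-deleted, shape by replicate number) and the mean and SD of each group as a bar. The 3 Igha probe sets separate the groups evenly, control 2 stands above the other controls in 4 Ighm probe sets, and p300-deleted 3 stands at 6.55 in Ighg3 1427503_at.

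Probe sets named for Ighg3, the IgG3 constant region, did not rise in any of 4 cases (1 higher at an unadjusted p under 0.05). Only 1427503_at was well above background, and 1 array decided its value. It read 11.63, 11.40 and 6.55 in p300-deleted arrays 1, 2 and 3, and 9.07, 9.17 and 9.64 in controls (difference 0.57, SE 1.14, adjusted p = 0.880). Arrays 1 and 2 were above and array 3 below every control, with an SD of 2.87 in the p300-deleted group against 0.31 in controls. Without p300-deleted 3 the difference was 2.22 (SE 0.19, adjusted p = 0.00984), and without p300-deleted 1 or 2 it was -0.32 or -0.20. The other Ighg3 probe sets, 1426199_x_at, 1447998_at and 1426198_at, were dim, with differences of 0.46, 0.29 and 0.24 and adjusted p of 0.225, 0.405 and 0.557.

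Heavy chain probe sets that list a variable segment gave 1 rise in 5. It was 1427851_x_at, listing Ighv1-72 and Ighm, which read 7.48, 7.60 and 7.08 with p300 deleted against 4.09, 3.47 and 4.64 in controls and rose by 3.32 (SE 0.27, adjusted p = 0.00220), or 9.99-fold. The other 4 list the segment Ighv14-2. Probe set 1455530_at, named for Ighv14-2 alone, read 6.29, 6.14 and 6.46 against 6.85, 6.40 and 6.68, the lowest difference of all members (-0.34, SE 0.14, adjusted p = 0.323), with overlapping groups. The 3 that list Ighv14-2, Ighg3 and Ighm together had differences of 0.92 for 1451947_at (SE 0.21, adjusted p = 0.110), 0.65 for 1427758_x_at (SE 0.22, adjusted p = 0.240) and -0.31 for 1452538_at (SE 0.19, adjusted p = 0.525). The last of these was dim and is the other negative member.

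Of the kappa chain probe sets, 5 of 28 rose, 0 fell and 23 did not pass. The median difference was 1.19, all 28 differences were positive, from 0.04 to 2.97, and the groups did not overlap for 22. At an adjusted p under 0.1 the count was 16 of 28, where 1.12% of all probe sets were higher at that threshold. Rises numbered 3, 2 and 2 when p300-deleted 1, p300-deleted 3 or control 1 was left out, and 13 when control 3 was.

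The largest kappa differences belonged to Igkv9-120, a kappa variable segment. Igkv9-120 probe set 1452536_s_at read 8.11, 7.35 and 7.87 with p300 deleted against 4.71, 4.60 and 5.12 in controls, and rose by 2.97 (SE 0.21, adjusted p = 0.00104), or 7.81-fold. Igkv9-120 1460423_x_at read 12.16, 11.78 and 12.12 against 9.53, 10.0001 and 9.44 and rose by 2.37 (SE 0.17, adjusted p = 0.00104), or 5.15-fold. In both, every p300-deleted array lay more than 1.5 log2 units above every control. A further probe set of the segment, 1427750_at, has the same source record as the first but was dim, at 2.08 to 2.69 over all arrays, with a difference of 0.39 (adjusted p = 0.175).

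The remaining large kappa differences varied more between replicates. Probe set 1425738_at, annotated to the kappa locus as a whole (Igk), read 10.41, 9.58 and 10.29 against 7.57, 7.86 and 8.49 and rose by 2.12 (SE 0.27, adjusted p = 0.0257), a call lost without p300-deleted 1 or 3 or control 1 (adjusted p of 0.0771 to 0.122). Igkv15-103 read 10.75, 10.27 and 10.40 against 8.42, 9.28 and 7.33 (difference 2.13, SE 0.41, adjusted p = 0.0707). Its controls spanned almost 2 log2 units, and it passed without control 2 (2.60, adjusted p = 0.0162) or control 3 (1.62, adjusted p = 0.0273). Probe set 1451965_at, listing Igkv6-14, Igkv6-23 and Igkv8-19, read 10.73, 9.98 and 11.21 against 7.97, 9.33 and 8.92 (difference 1.90, SE 0.38, adjusted p = 0.0756). Without passing, Igkv6-15 1427859_at, Igkv6-20 1451962_at, Igk 1427757_at and Igkv4-72 1426201_at had differences of 1.77, 1.71, 1.65 and 1.45 (adjusted p of 0.143, 0.166, 0.0693 and 0.0600). The other rises, named after their values were seen, were Igkv6-14 1427860_at, by 1.31 (SE 0.18, adjusted p = 0.0314), and Igkv4-68 1427857_x_at, by 1.25 (SE 0.18, adjusted p = 0.0319). Both had closely spaced controls, with SDs of 0.08 and 0.04, and both lost the call without some single arrays other than control 3 (adjusted p up to 0.159).

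The 3 probe sets that list Igkc, the only kappa constant region gene, together with Igkj1 and 3 variable segments had small differences that separated the groups without passing. Probe set 1427455_x_at read 13.87, 13.72 and 13.73 with p300 deleted against 13.20, 13.34 and 13.42 in controls (difference 0.45, SE 0.11, adjusted p = 0.114). Probe set 1427660_x_at read 12.37, 12.29 and 12.27 against 11.62, 11.64 and 11.92 (difference 0.58, SE 0.12, adjusted p = 0.0750). Probe set 1452417_x_at read 11.74, 11.59 and 11.58 against 10.74, 10.83 and 11.21 (difference 0.71, SE 0.14, adjusted p = 0.0752). Control 3 was the highest control in each, and without it the last 2 passed (0.68 and 0.85, adjusted p of 0.0298 and 0.0186). The first lay 0.16, 0.26 and 0.28 below the highest value of the p300-deleted arrays and so close to the top of the scale, but the other 2 lay lower.

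At the other end, Igkv1-117 and Igkv1-135 had the smallest kappa differences, 0.04 (adjusted p = 0.941) and 0.14 (adjusted p = 0.694). Both were dim on every array, at 2.46 to 3.09, so these probe sets gave little room to read a difference. Of the 11 dim members, 6 heavy and 5 kappa, 0 were called (5 at an unadjusted p under 0.05, limma) and the median difference was 0.29. Among the 43 others it was 1.45.

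Of the lambda chain probe sets, 2 of 3 rose and 0 fell. Probe set 1424931_s_at, listing the lambda constant gene Iglc1 and the variable segment Iglv1, read 12.28, 12.16 and 11.72 with p300 deleted against 10.26, 10.96 and 10.55 in controls, and rose by 1.47 (SE 0.20, adjusted p = 0.0314), or 2.76-fold. Iglv1 1430523_s_at read 12.29, 12.12 and 11.59 against 10.60, 10.88 and 10.05 and rose by 1.49 (SE 0.24, adjusted p = 0.0465). The groups did not overlap in either. The calls were lost without p300-deleted 1 or 2 or control 1 in both (adjusted p of 0.104 to 0.215), and that of 1430523_s_at also without p300-deleted 3 (adjusted p = 0.0529). A further Iglv1 probe set, 1427292_at, read 5.32, 5.30 and 5.64 against 4.70, 5.75 and 5.26 (difference 0.18, SE 0.24, adjusted p = 0.805), with overlapping groups.

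**Figure D3:**
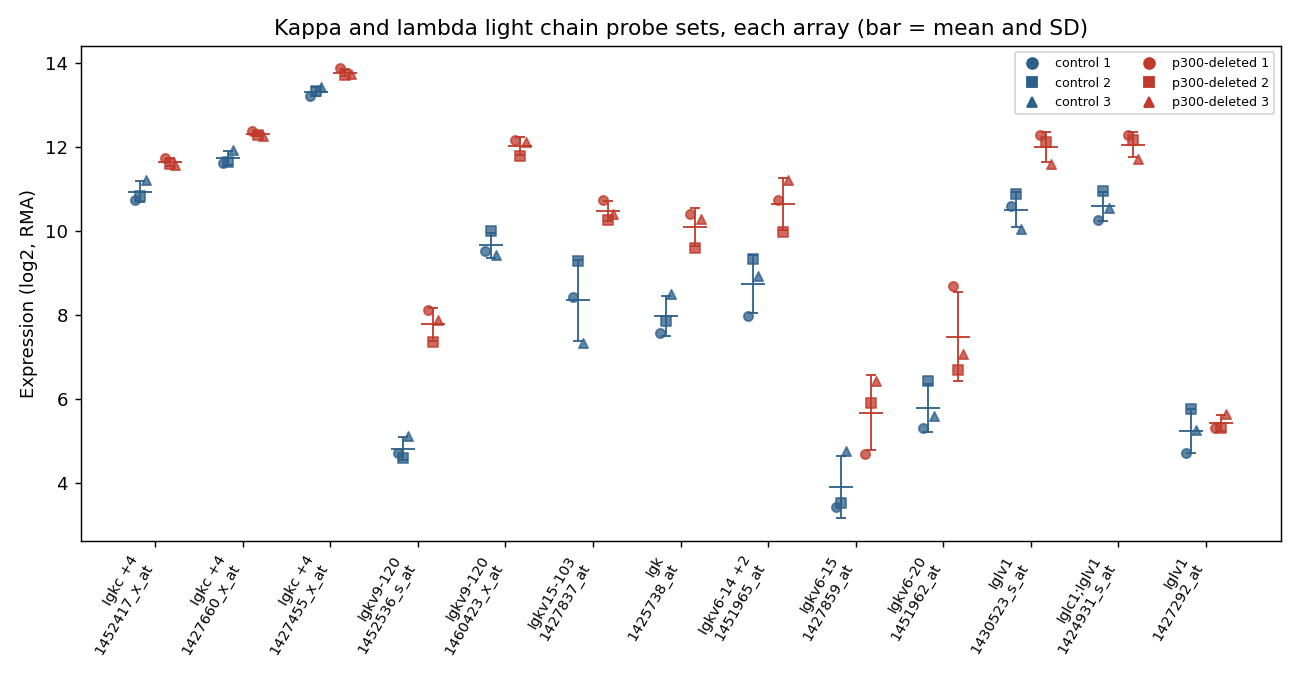
Level (log2, RMA) of 13 light chain probe sets: the 3 that list Igkc, the 7 other kappa probe sets with the largest differences and the 3 lambda probe sets, with each array as a point (blue control, red p300-deleted) and the mean and SD of each group as a bar. The p300-deleted arrays lie above the controls in 11 of the 13, with overlap in Igkv6-15 1427859_at and Iglv1 1427292_at.

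Side by side, the median differences of heavy, kappa and lambda probe sets were 0.92, 1.19 and 1.47, and their ranges overlapped (-0.34 to 3.73, 0.04 to 2.97 and 0.18 to 1.49). The order of the medians depended on the members taken. Without the dimmest 30% of probe sets they were 2.21 (heavy), 1.25 (kappa) and 1.47 (lambda). With members of 1 symbol only they were 1.85, 1.25 and 0.83. No difference between chains was tested. Averaged over members, the deviation from the 6-array mean was 1.01, 0.76 and 0.58 for heavy, 0.80, 0.32 and 0.64 for kappa and 0.66, 0.56 and 0.35 for lambda probe sets in p300-deleted arrays 1, 2 and 3. In controls 1, 2 and 3 it was -0.97, -0.54 and -0.85 for heavy, -0.75, -0.49 and -0.52 for kappa and -0.78, -0.11 and -0.68 for lambda. The p300-deleted arrays lay above the controls for each chain, with p300-deleted 1 highest and control 1 lowest throughout. Members also varied more between replicates than probe sets in general: the median SD was 0.30 in p300-deleted arrays and 0.35 in controls, against 0.12 and 0.16 over all probe sets.

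The members also differed by how their probe sets were made. The 28 whose IDs end in _at alone held 4 rises and had a median difference of 0.98, and the 26 whose IDs carry a further _x, _s or _a, marking probes shared by several transcripts, held 10 rises and had a median of 1.36. Brightness also differed: 8 of the 28 and 3 of the 26 were dim, and the part of each was not tested. Of the 54, 17 share a source record with another member, and such pairs did not always read alike. Ighm 1427869_at and 1427870_x_at differed in their mean level over all arrays (4.40 and 9.25) and in their difference (1.85 and 3.11), while 1427855_at and 1427856_a_at, both named Igkv19-93, and Igkv4-68 1427857_x_at, all from 1 record, had differences of 1.25, 1.14 and 1.25 with SEs of 0.39, 0.45 and 0.18. Only the last of these passed (adjusted p of 0.199 and 0.293 for the others).

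Genes that act with immunoglobulin were each read by 1 probe set, the brightest, in the same fit. Among 12393 genes so read, 0.29% rose and 0.161% fell. Of 14 measured plasma cell genes 3 rose and 0 fell in limma (before adjustment, 10 higher and 1 lower at p under 0.05). Of their differences 12 were positive (44.8% over all genes so read), and the median was 0.77. Tnfrsf17, the survival receptor BCMA, read 6.20, 5.66 and 6.13 with p300 deleted against 4.17, 4.48 and 3.94 in controls and rose by 1.80 (SE 0.18, adjusted p = 0.00669). Jchain, the chain that links IgA and IgM into polymers, read 13.05, 12.98 and 12.72 against 11.51, 12.12 and 11.97 and rose by 1.05 (SE 0.17, adjusted p = 0.0496). Derl3, which acts in the disposal of misfolded proteins of the endoplasmic reticulum, rose by 1.37 (SE 0.22, adjusted p = 0.0444). The plasma cell surface proteoglycan Sdc1 had a difference of 0.81 (adjusted p = 0.142), and Prdm1, the transcription factor Blimp-1 that many activated T cells also express, of -0.09 (adjusted p = 0.872). Slamf7 read 6.46, 5.62 and 6.08 with p300 deleted against 6.47, 6.65 and 6.72 in controls, without overlap (difference -0.56, SE 0.20, adjusted p = 0.247). Leaving out any 1 p300-deleted array left 1 call and leaving out control 1 left 0, while leaving out control 2 or 3 gave 4.

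Of 30 genes for antibody assembly and secretion 0 changed in limma (before adjustment, 14 higher and 0 lower at p under 0.05), with 27 positive differences and a median of 0.29. The largest were those of Ell2, an elongation factor that favours secreted heavy chain transcripts, at 0.84 (SE 0.14, adjusted p = 0.0541), and of the protein disulfide isomerase Pdia3 at 0.82 (SE 0.26, adjusted p = 0.208). With control 3 left out, Ell2, Pdia3, Pdia4 and Erp44 passed as higher, with differences of 0.89 to 1.11.

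The B cell markers held no gene that rose. Of 16 measured B cell markers 0 rose and 0 fell in limma (before adjustment, 0 higher and 3 lower at p under 0.05), 4 differences were positive and the median was -0.17. The largest difference was that of Spib, an ETS family regulator needed for B cell receptor responses, which read 6.06, 5.45 and 5.56 against 6.67, 6.64 and 6.61 (difference -0.95, SE 0.16, adjusted p = 0.0544). Its groups did not overlap, and it passed as lower with p300-deleted 1 left out (-1.13, adjusted p = 0.0292) or control 3 left out (-0.96, adjusted p = 0.0468). Ms4a1, which encodes CD20, read 7.61, 6.77 and 6.87 with p300 deleted against 7.57, 7.53 and 7.48 in controls (difference -0.44, adjusted p = 0.373). Among the 8 measured partners of the B cell receptor and surrogate light chain 0 changed (0 at an unadjusted p under 0.05, limma), with a median of -0.07. Cd79a, a signalling chain that membrane immunoglobulin needs, had a difference of -0.22 (adjusted p = 0.648), and Cd79b one of -0.24 (adjusted p = 0.481). The defining B cell transcription factor Pax5 was dim in every array, at 3.10 to 3.52. Of the genes for immunoglobulin gene recombination and switching, 12 were measured, 0 rose and 1 fell. It was Ung, a uracil glycosylase of class switching that also serves general DNA repair, by 0.74 (SE 0.11, adjusted p = 0.0325), a call that held only without control 3 among the fits that left out an array. Rag1 and Rag2, which cut the gene segments for joining, were dim.

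**Figure D4:**
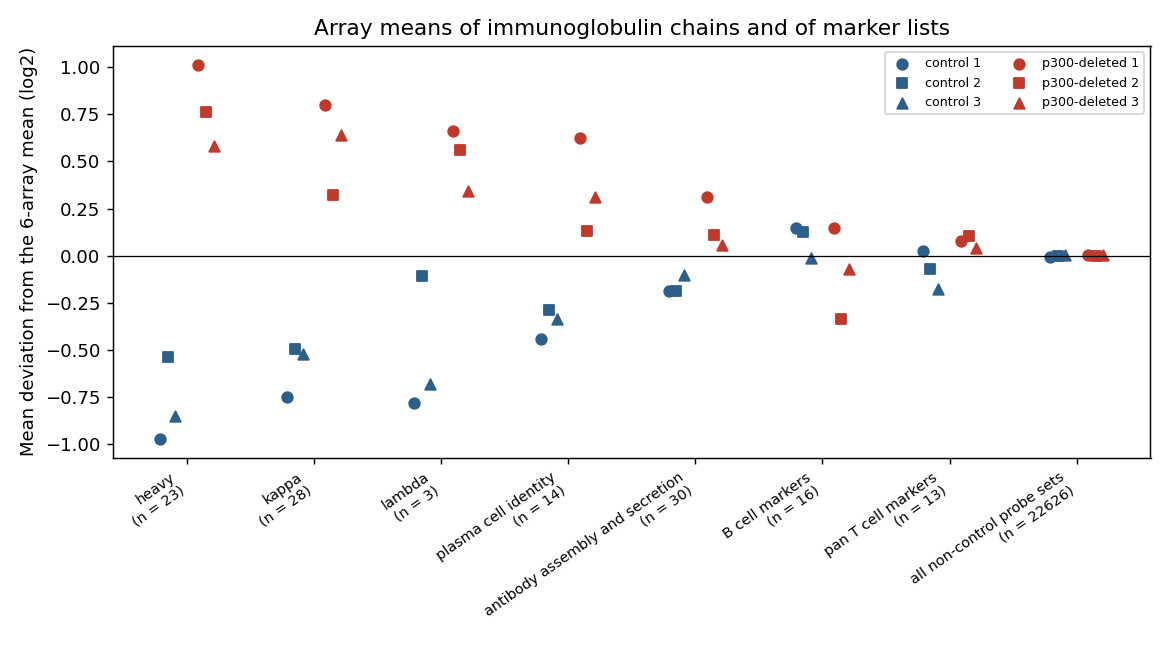
Mean deviation of each array from the 6-array mean (log2, vertical axis) for heavy, kappa and lambda probe sets, for gene lists (1 probe set per gene, the brightest) and for all non-control probe sets; blue points are controls, red points p300-deleted arrays, shape marks the replicate number and n is the number of probe sets or genes. The groups separate for the 3 chains, plasma cell genes, assembly genes and, by a small margin, T cell markers, and overlap for B cell markers.

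Among receptors for antibody, 1 of 13 rose and 0 fell. It was Fcer1a, a chain of the IgE receptor of mast cells and basophils, at 1.67 (SE 0.25, adjusted p = 0.0347), a call lost without any 1 p300-deleted array or control 1. The inhibitory IgG receptor Fcgr2b of B cells and myeloid cells had a difference of -0.01 (adjusted p = 0.978). Of 13 signals that help B cells or direct the antibody class, 1 rose and 0 fell. It was Il10, a cytokine that also acts on B cells, at 0.91 (SE 0.14, adjusted p = 0.0397). This call held only without control 3 among the fits that left out an array. Il21, which drives B cells towards plasma cells, had a difference of 1.04 (SE 0.18, adjusted p = 0.0600), Tnfsf13b, the B cell survival factor BAFF, one of 0.54 (SE 0.10, adjusted p = 0.0688), and Tgfb1, a signal for IgA switching, one of -0.19 (adjusted p = 0.470).

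Markers of other cells than T cells did not all move with the immunoglobulin probe sets. Of 11 measured mast cell and basophil markers 3 rose and 0 fell in limma (before adjustment, 6 higher and 0 lower at p under 0.05). The 3 were Fcer1a, the protease Cma1 by 1.67 (SE 0.24, adjusted p = 0.0319) and the protease Mcpt4 by 1.38 (SE 0.22, adjusted p = 0.0463). Mcpt8 had the largest difference of the list without passing. It read 8.22, 7.12 and 6.25 with p300 deleted against 4.70, 4.26 and 5.03 in controls (difference 2.53, SE 0.43, adjusted p = 0.0566). In that list 10 differences were positive and the median was 1.04, the mean level was 5.31 to 5.88 with p300 deleted and 4.54 to 4.70 in controls, and leaving out 1 array gave 0 to 4 calls (0 without p300-deleted 1 or control 1, 1 without p300-deleted 3, 4 without p300-deleted 2). Of 11 myeloid markers 0 changed in limma (7 higher at an unadjusted p under 0.05), all 11 were positive and the median was 0.69, with a mean deviation of 1.21, 0.07 and 0.23 in p300-deleted arrays 1, 2 and 3 against -0.49, -0.99 and -0.03 in controls. S100a8, an abundant calcium-binding protein of neutrophils, read 9.95, 7.57 and 8.67 against 6.87, 4.72 and 6.84 (difference 2.59, SE 0.68, adjusted p = 0.143). Of 9 CD8 T and NK cell markers 0 changed in limma (before adjustment, 3 higher and 1 lower at p under 0.05), and 5 differences were positive. The largest in size were those of Ncr1 (1.46, SE 0.38, adjusted p = 0.140) and Gzmb (-1.12, SE 0.42, adjusted p = 0.273). Ncr1 passed as higher with p300-deleted 3 left out (1.97, adjusted p = 0.00984) and Gzma with control 3 left out (0.79, adjusted p = 0.0444). Of 6 erythroid and platelet markers 0 changed (0 at an unadjusted p under 0.05, limma) and 0 were positive. Of 13 T cell markers 0 changed in limma (4 higher at an unadjusted p under 0.05), with a median of 0.11 and a mean level of 10.87 to 10.93 with p300 deleted and 10.65 to 10.86 in controls. Plasma cell genes were above the dim limit in both groups, with a mean level over the list of 7.81 to 8.30 in p300-deleted arrays and 7.24 to 7.39 in controls, on the log2 scale, while the mean level of B cell markers was 5.77 to 6.25 and 6.09 to 6.25. The part of other cell types in the immunoglobulin differences was not tested.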

How the data were processed

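Each sample was hybridised to 1 array, from 100 ng of total RNA per the labels' protocols. The deposited values are on a log2 scale and were made by the authors with RMA, per the submitters' processing notes, a method that corrects background, quantile normalizes and summarises the probes of a set. No label states its version. No depth applies, and 3 arrays per group limit the precision.

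All 22626 non-control probe sets were fitted in R 4.3.3 with limma 3.58.1 (lmFit, eBayes; contrast p300-deleted minus control, two-sided, no covariate, Benjamini-Hochberg over all of them). There was no filter on dim probe sets, so every member was tested. The fit was tested on simulated data with independent noise, with 200 probe sets changed in each of 10 runs. It recovered 14.4% of changes of 0.5 log2 units, 74.6% of 1, 96.6% of 2 and 99.6% of 3. Of its calls 3.76% were false. Small changes were thus often missed in the simulation.

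Members, gene lists and tests were chosen with earlier results of these data known. The members named were all with a constant region symbol and, in each chain, the 5 highest and 2 lowest differences. From each list up to 4 genes that passed, or 2 where none did, were to be named, and other genes were picked with their values in view. All 27 member gene IDs matched the RefSeq gene table (GRCm38.p6, 0 symbols changed) and 0 the promoter table, so no sequence is printed. Gene families share sequence, and 17 members share a source record with another member.

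Alternatives were filters on dim probe sets (30% and 50%), a further quantile normalization, median centring, a trended and robust prior, array weights, a block for the replicate number, fits that left out 1 array, thresholds of 0.01 and 0.1, and narrower member sets.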

Additional observations from a re-analysis of the deposited data

How the results depend on the processing

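Filters on dim probe sets, the trended and robust prior and the replicate block leave each difference unchanged, so they could not change a sign. The 38 immunoglobulin probe sets followed here include those picked for the highest differences of each chain. With these counted, 468 of their 474 values under the alternative fits kept their sign. The exceptions were Ighg3 1427503_at without p300-deleted 1 (-0.32) or 2 (-0.20), with a range of -0.32 to 2.22 when 1 array was left out, Igkv1-117 with array weights (-0.074) and without p300-deleted 1 or control 3 (range -0.090 to 0.142), and Iglv1 1427292_at without control 1 (range -0.087 to 0.435). The number that passed varied between the alternatives. With array weights 34 members rose (heavy 13, kappa 19) and 643 probe sets were called in all. With a trended and robust prior 11 kappa and 1 lambda rose (158 in all), and with median centring 10 kappa (159 in all). At an adjusted p under 0.01, 8 members rose (kappa 2, lambda 0, 23 probe sets in all), and under 0.1, 30 did (heavy 12, kappa 16, 396 in all). Leaving out 1 array gave 8 to 22 members (heavy 6 to 10, kappa 2 to 13, lambda 0 to 2) and 24 to 384 probe sets in all, and medians of 0.83 to 1.85 (heavy), 1.01 to 1.33 (kappa) and 1.26 to 1.65 (lambda). Leaving out the dimmest 30% or 50% of probe sets moved the heavy median to 2.21 or 2.67, and 30% left 1 lambda rise.

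Members with 1 symbol gave 1 lambda rise and medians of 1.85 (heavy) and 0.83 (lambda). Members whose IDs end in neither _x_at, _s_at nor _a_at gave 4 rises (heavy 2, kappa 2, lambda 0) and medians of 0.43 (heavy) and 0.18 (lambda); this set holds 28 of the 54 probe sets. No pairing by replicate number was seen, which does not exclude one. Correlations of same-numbered arrays were -0.01, 0.08 and -0.08, and those of other pairs were -0.16 to 0.17. With the replicate block 17 members rose and 65 probe sets were called in all. No member fell under any alternative run.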
